A study of Bos taurus with 28 samples.

Results

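The genes described here carry long-chain fatty acids from blood plasma into the liver cell and prepare them for use: DBI, ACSL1, ACSL5, CD36, FABP1, FABP3, SLC27A1, SLC27A2, SLC27A4 and SLC27A6. They were chosen by gene symbol in the array's platform annotation, as genes of fatty acid uptake, binding and activation, and their 10 symbols were found on 11 of the 13824 probes. Each of the 10 genes had enough values to be tested, among 6958 tested genes of 8073 with a named probe. The study measured liver RNA of 14 multiparous Holstein cows early after calving on 28 two-colour cDNA arrays. Each cow had 2 arrays, one with its liver RNA in Cy3 and one in Cy5, and the other dye held a reference RNA derived from cattle tissues. Ketotic cows (n = 7) received 50% of their earlier feed intake until clinical signs of ketosis or at most until day 14 after calving, starting on day 5 by the design text and on day 4 by the sample labels. They then went back to free intake and were treated where necessary. Healthy cows (n = 7) served as controls without restriction. All cows had been judged healthy on day 4 and were assigned at random; the labels give neither age nor the day on which liver was taken. Every ketotic cow and no healthy cow had its feed restricted, so ketosis, feed restriction and any treatment cannot be told apart. The comparison asks how liver RNA differs between these groups.

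In a cow short of energy, body fat releases non-esterified fatty acids, and the liver takes up a share of them that follows their level in plasma. CD36 and the fatty acid transport proteins of the SLC27 family assist entry at the membrane, fatty acid binding proteins carry the fatty acid through the cytosol, and acyl-CoA synthetases such as ACSL1 and ACSL5 couple it to coenzyme A. DBI, the acyl-CoA binding protein, then holds the product and hands it to mitochondria for oxidation and ketone body synthesis or to the endoplasmic reticulum for triacylglycerol.

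The values are log2 ratios of liver over reference, averaged over a cow's 2 arrays, after each array was set to a median of 0. A value of 0 therefore marks the array's median ratio, and levels are compared between cows for one gene, never between genes. The liver-over-reference direction is called likely, since it rests on the dyes in the titles and on marker genes. Over the 12 measured hepatocyte markers, the per-cow median lay between 6.04 and 7.34 in ketotic and between 3.31 and 7.36 in healthy cows. The 3.31 was healthy cow 7, and the other healthy cows began at 5.5. Healthy cow 7 stood apart. It correlated with the other cows across probes at 0.363 to 0.462, while the others correlated with each other at 0.716 or more, and its array with the liver in Cy5 had a median correlation of 0.236 with same-dye arrays of other cows. It gave the lowest healthy value for 9 of the 9 genes on which it had one, so each result is given with and without it. Spots with no usable ratio made up 16.5% ± 4.49 of all spots in ketotic and 11.9% ± 2.80 in healthy cows (SD, n = 7 each; healthy cow 7 had 9.19%), and the spread of the log2 ratios (median absolute deviation) was 1.40 ± 0.185 in ketotic and 1.12 ± 0.128 in healthy cows.

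Of the 10 genes, DBI alone fell in ketotic liver and none rose. Groups were compared by limma across all genes, and a gene passed at a Benjamini-Hochberg adjusted p under 0.05. By the same rule 12.4% of all tested genes fell and 0.92% rose, so 1 of 10 is close to the share for genes in general. Without healthy cow 7, 3 of the 10 fell (DBI, ACSL5 and CD36) and none rose, where 18.4% of all genes fell and 1.5% rose. No gene of the 10 had groups without overlap, with or without healthy cow 7, where 5.71% and 9.04% of all genes did. The median log2 difference, ketotic minus healthy, was 0.26 over the 10 genes and -0.18 over all genes; without healthy cow 7 it was -0.17 and -0.19. In bulk liver, fewer cells of a type and less RNA per cell cannot be told apart.

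**Figure D1:**
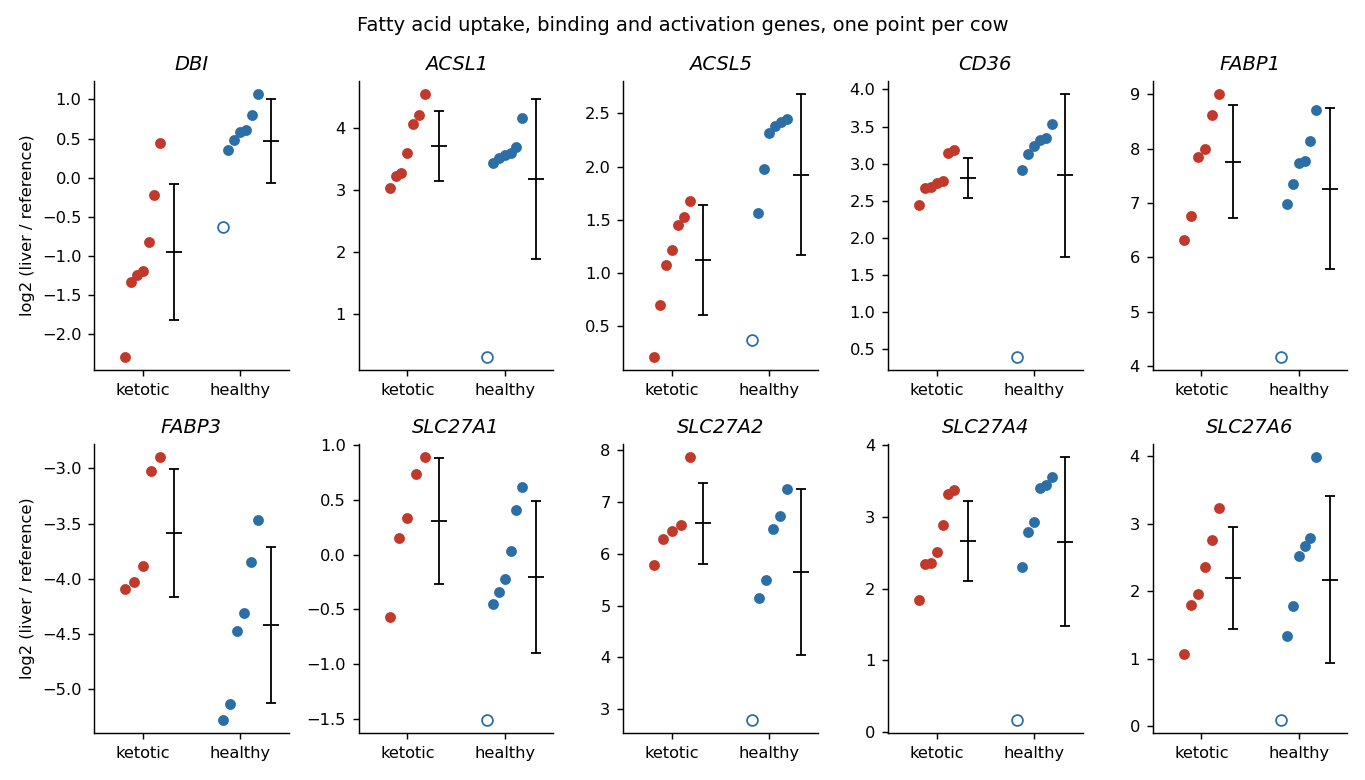
Log2 ratio of liver over reference (vertical axes, own scale per gene) in ketotic (red) and healthy (blue) cows; a point is a cow, the open circle is healthy cow 7, and the bar beside each group is its mean ± SD. DBI and ACSL5 lie lower in most ketotic cows, and healthy cow 7 lies below the other healthy cows in each panel where it has a value.

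DBI, which binds acyl-CoA esters, had values of -2.29 (lowest), -1.19 (median) and 0.44 (highest) in the 7 ketotic cows, against -0.64, 0.59 and 1.07 in the 7 healthy cows. Each ketotic cow lay below the healthy mean, but the groups overlapped: ketotic cow 6, at 0.44, reached the healthy range, and healthy cow 7, at -0.64, reached the ketotic range. The mean was -0.95 ± 0.873 in ketotic and 0.47 ± 0.538 in healthy cows (SD, n = 7 each). DBI thus fell by 1.42 on the log2 scale (SE 0.355, 95% interval -2.17 to -0.66, 2.67-fold lower, limma adjusted p = 0.0185). It ranked number 33 of the 6958 genes by size of fall and number 412 by limma p. Without healthy cow 7, DBI fell by 1.60 (3.03-fold, limma adjusted p = 0.00502), and 6 of 7 ketotic cows lay below the lowest of the other 6 healthy cows, 0.36.

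The DBI probe gave a ratio on all of its 56 spots, and its duplicate spots differed by a median of 0.084. Both dye orientations put it lower in ketotic cows. With the liver in Cy3 the means were -1.17 ± 0.756 in ketotic and 0.40 ± 0.728 in healthy cows, a difference of -1.57 (limma adjusted p = 0.0179). With the liver in Cy5 they were -0.73 ± 1.04 and 0.53 ± 0.396, a difference of -1.26 that did not pass (adjusted p = 0.115), on arrays where 12 of 7633 genes passed in all, against 690 of 7432 with the liver in Cy3. Ketotic cow 5, the lowest in DBI, also had the largest share of unusable spots, 25.0%. Ketotic cows 2, 3 and 6 had 12.2%, 12.9% and 13.0% unusable spots, with DBI at -1.19, -1.24 and 0.44. Ketotic cows 4, 1 and 7 had 16.25%, 17.4% and 18.4%, with DBI at -1.33, -0.22 and -0.82. With that share as a covariate the difference was -1.20 (adjusted p = 0.146), and without ketotic cow 5 it was -1.19 (adjusted p = 0.0288); beyond these fits, the part of array quality in the difference was not tested.

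**Figure D2:**
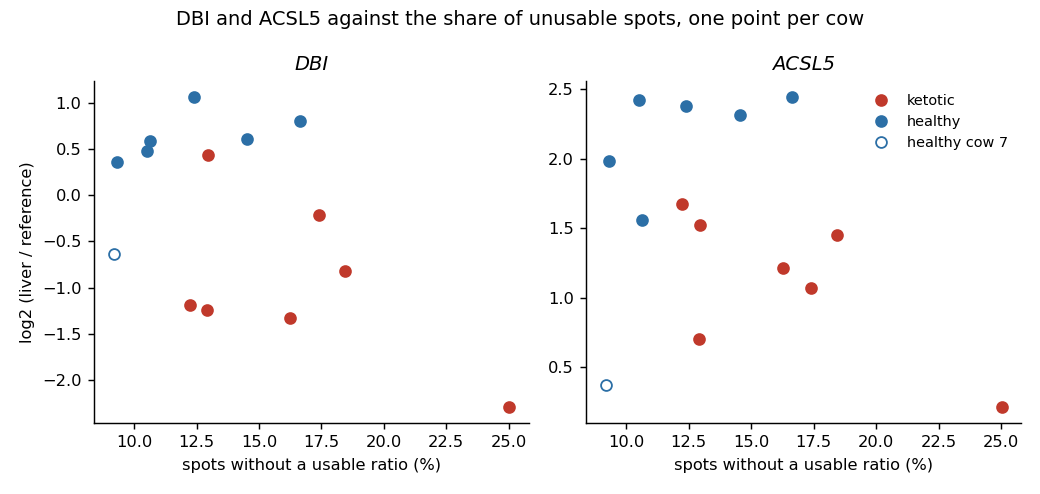
Log2 ratio of liver over reference for DBI (left) and ACSL5 (right) against the percentage of spots without a usable ratio, averaged over a cow's 2 arrays; ketotic cows are red, healthy cows blue, healthy cow 7 an open circle. The ketotic cow with 25.0% unusable spots is the lowest for both genes, and healthy cow 7, with 9.19%, is the lowest healthy cow for both.

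Of the activating enzymes, ACSL5 was lower in every ketotic cow than the healthy mean and ACSL1 was not. ACSL5, an acyl-CoA synthetase of the endoplasmic reticulum and the mitochondrial outer membrane, had values of 0.21, 1.22 and 1.67 (lowest, median, highest) in ketotic cows, against 0.37, 2.31 and 2.45 in healthy cows. The healthy low was cow 7; the next healthy cow stood at 1.56, and 6 of 7 ketotic cows lay below it. The means were 1.12 ± 0.515 in ketotic and 1.93 ± 0.755 in healthy cows (SD, n = 7 each), a difference of -0.80 (SE 0.319, 95% interval -1.48 to -0.12) that did not pass over all genes (limma adjusted p = 0.110). Without healthy cow 7 ACSL5 fell by 1.06 (SE 0.234, 2.09-fold, limma adjusted p = 0.00666). All its 56 spots had a ratio, and a cow's 2 arrays differed by a median of 0.198.

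ACSL1, the main long-chain acyl-CoA synthetase of liver, ranged over 3.04, 3.60 and 4.54 in ketotic cows, against 0.31, 3.55 and 4.15 in healthy cows (lowest, median, highest). Apart from healthy cow 7, at 0.31, the healthy cows lay between 3.42 and 4.15, inside the ketotic range. The difference was 0.53 (95% interval -0.48 to 1.54, limma adjusted p = 0.509) with that cow and 0.053 (-0.45 to 0.56, adjusted p = 0.902) without it. Healthy cow 7's arrays disagreed on this gene, with 1.14 for the liver in Cy3 and -0.53 for the liver in Cy5. The gap between its arrays, Cy5 minus Cy3, was widest for FABP1 (-2.74), CD36 (-2.52) and SLC27A4 (-2.12).

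In a difference between 2 genes within a cow the centring of its arrays cancels, but their scaling does not. ACSL5 minus ACSL1 averaged -2.58 ± 0.683 in ketotic and -1.25 ± 0.668 in healthy cows (SD, n = 7 each), with 5 of 7 ketotic cows below the lowest healthy one. Without healthy cow 7, which had 0.063, the healthy mean was -1.47 ± 0.366. DBI minus ACSL1 averaged -4.65 ± 0.881 in ketotic and -2.71 ± 0.826 in healthy cows, with 6 of 7 ketotic cows below the lowest healthy value, -3.35; without healthy cow 7 the healthy mean was -3.00 ± 0.305. With one spread for all arrays the group difference in DBI minus ACSL1 was -1.23 instead of -1.95, and that in ACSL5 minus ACSL1 was -1.0 instead of -1.33, with 5 and 3 of 7 ketotic cows below the lowest healthy one. Leaving out healthy cow 7, DBI minus ACSL1 differed by -1.65, and by -0.92 with one spread. ACSL5 minus ACSL1 then differed by -1.12, and by -0.75 with one spread. The other 2 pairs computed differed less. DBI minus ACSL5 differed by -0.61, with 5 of 7 ketotic cows below the lowest healthy one, and by -0.23 with 1 of 7 under one spread. CD36 minus ACSL1 differed by -0.57, with 4 of 7 below, and by -0.49 with 3 of 7 under one spread. Leaving out healthy cow 7, DBI minus ACSL5 differed by -0.54, and by -0.165 under one spread. CD36 minus ACSL1 then differed by -0.50, and by -0.41 under one spread. These are descriptions with no test, and the same counts over other gene pairs are not given.

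**Figure D3:**
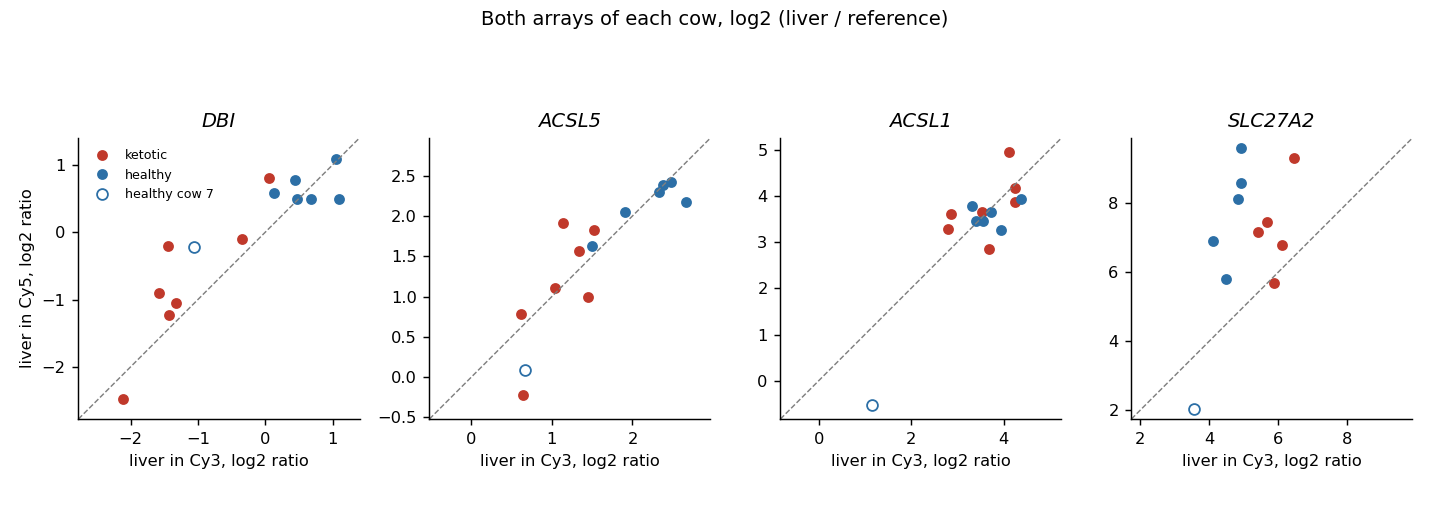
Log2 ratio of liver over reference on a cow's array with the liver in Cy5 (vertical) against its array with the liver in Cy3 (horizontal), for 4 genes; the dashed line marks equal values, ketotic cows are red, healthy cows blue, healthy cow 7 an open circle. For DBI and ACSL5 most ketotic cows lie lower on both axes; for SLC27A2, drawn for the 5 ketotic and 6 healthy cows with both arrays, the ketotic cows lie to the right of the healthy ones on the Cy3 axis and among them on the Cy5 axis.

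CD36, the scavenger receptor that binds fatty acids at the plasma membrane, is the one gene with 2 probes. Its values were 2.44, 2.74 and 3.19 in ketotic cows, against 0.39, 3.24 and 3.54 in healthy cows (lowest, median, highest). The healthy low was again cow 7, and the other 6 healthy cows began at 2.92, above 5 of 7 ketotic cows. The difference was -0.036 (95% interval -0.86 to 0.79, limma adjusted p = 0.966) with all cows. Without healthy cow 7 CD36 fell by 0.44 (SE 0.149, 1.36-fold, limma adjusted p = 0.0486), so 1 cow decides this call. The 2 probes then gave -0.57 (limma adjusted p over all probes 0.0189) and -0.32 (0.280), both lower. In healthy cow 7 itself they stood at -0.21 and 0.99. The 0.99 averages arrays that disagreed, with 3.25 for the liver in Cy3 and -1.26 for the liver in Cy5. The other healthy cows had 2.68 to 3.55 on that probe with the liver in Cy3.

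Among the fatty acid transport proteins, which carry fatty acids across membranes and have acyl-CoA synthetase activity of their own, none passed. SLC27A2, a very-long-chain enzyme of liver peroxisomes and endoplasmic reticulum, had values in 5 ketotic cows, 6.44, 6.29, 7.88, 5.78 and 6.56, and in 6 healthy cows, from 2.80 (cow 7) through a median of 5.99 to 7.25. All 5 ketotic values lay above the healthy mean of 5.65 ± 1.60 (SD, n = 6), which healthy cow 7 lowered. Leaving it out, the healthy mean was 6.22 ± 0.874 (SD, n = 5), and ketotic cow 5, at 5.78, lay below. The difference of 0.94 had an interval of -0.54 to 2.41 (limma adjusted p = 0.401). It was 0.37 without healthy cow 7 (adjusted p = 0.611). The arrays with the liver in Cy3 measured SLC27A2 in all cows. There it ran from 5.40 to 7.40 in ketotic and from 3.55 to 5.42 in healthy cows, averaging 6.06 ± 0.691 in ketotic and 4.60 ± 0.617 in healthy cows (SD, n = 7 each), and 6 of 7 ketotic cows lay above the highest healthy one. On those arrays alone it rose by 1.45 (SE 0.332, limma adjusted p = 0.0151; 1.28 and 0.0142 without healthy cow 7). With the liver in Cy5 the difference was 0.44 (adjusted p = 0.884), from 5 ketotic and 6 healthy cows, and -0.52 (0.747) without healthy cow 7. With all arrays scaled to one spread, the difference from both arrays was -0.61, so a direction for SLC27A2 rests on the scaling and on one dye.

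SLC27A1, known as the insulin-responsive transporter of muscle and fat, had 0.74, 0.34, 0.15, 0.89 and -0.57 in 5 ketotic cows, against -1.51, -0.22 and 0.62 (lowest, median, highest) in the 7 healthy cows. The groups overlapped over most of their range, and the difference was 0.52 (95% interval -0.23 to 1.26, limma adjusted p = 0.357; 0.30 without healthy cow 7). SLC27A4, which acts in the endoplasmic reticulum and is best known from intestine, had 1.85, 2.51 and 3.37 in ketotic and 0.17, 2.94 and 3.55 in healthy cows. Its difference was 0.0056 (-0.94 to 0.95, adjusted p = 0.995), and -0.41 (-0.98 to 0.16, adjusted p = 0.309) without healthy cow 7. SLC27A6, known from human heart and from the lactating bovine mammary gland, had 1.07, 2.16 and 3.23 in 6 ketotic and 0.10, 2.53 and 3.99 in 7 healthy cows, with a difference of 0.028 (-1.08 to 1.14, adjusted p = 0.981; -0.32 without healthy cow 7). The interval of SLC27A6 spans a 2-fold change in either direction, and its duplicate spots differed by a median of 0.854.

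The 2 cytosolic binding proteins did not pass. FABP1, the abundant fatty acid binding protein of hepatocytes, had 6.32, 7.93 and 9.0 in 6 ketotic cows, against 4.17, 7.73 and 8.71 in 7 healthy cows (lowest, median, highest). Healthy cow 7 gave the 4.17, and the other healthy cows began at 6.99; of the 6 ketotic cows, 2 lay below and 1 above the range of those healthy cows. The difference was 0.49 (95% interval -0.87 to 1.85, limma adjusted p = 0.665), and -0.026 (-0.95 to 0.90, adjusted p = 0.979) without healthy cow 7; with one spread it was -0.93. FABP1 lacked a ratio on 5 of 28 spots in ketotic and on 0 of 28 in healthy cows, 1 of them at the table's upper limit.

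FABP3, the heart-type binding protein, had log2 ratios far below the array median in every cow with a value. It had -3.89, -2.90, -4.09, -3.02 and -4.03 in 5 ketotic cows, against -5.28, -4.39 and -3.47 (lowest, median, highest) in 6 healthy cows, and no value in healthy cow 7. All 5 ketotic values lay above the healthy mean of -4.42 ± 0.706 (SD, n = 6), and the ranges overlapped between -4.09 and -3.47. The difference was 0.83 (SE 0.358, 95% interval 0.059 to 1.61), which did not pass over all genes (limma adjusted p = 0.146; 0.112 without healthy cow 7). The size moved with the processing. With one spread for all arrays FABP3 rose by 1.52 (limma adjusted p = 0.0372), while the difference was 0.47 (0.525) where either array was enough for a cow. It was 0.26 (0.770) on the arrays with the liver in Cy3, which measured all 14 cows and on which healthy cow 7 was the highest healthy cow, at -2.43. Its spots lacked a ratio in 6 of 28 cases in ketotic and 7 of 28 in healthy cows.

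**Figure D4:**
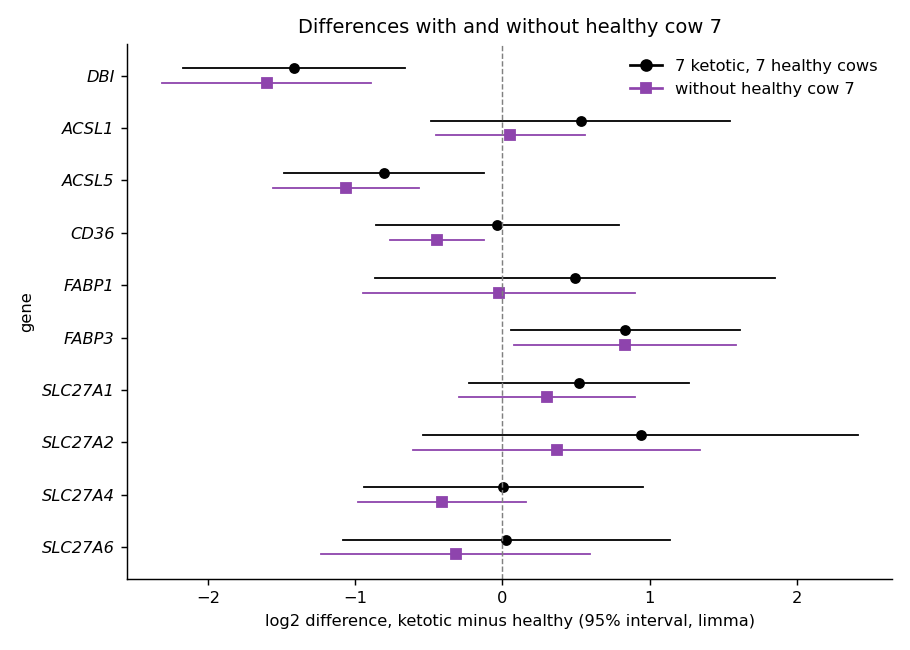
Log2 difference, ketotic minus healthy, with its 95% limma interval (horizontal axis) for each gene (vertical axis), with all 14 cows (black circles) and without healthy cow 7 (purple squares). The intervals of DBI and ACSL5 lie below 0 in both fits, that of CD36 does only without healthy cow 7, that of FABP3, on which healthy cow 7 has no value, lies above 0 in both with the same cows, and an interval clear of 0 need not pass the adjustment over all genes.

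Missing ratios were unevenly spread over the 10 genes. DBI, ACSL1, ACSL5 and SLC27A4 had a ratio on every spot; the other 6 genes lacked some. Over all members 28 of 308 spots (9.09%) were unusable in ketotic and 16 of 308 (5.19%) in healthy cows, 3 of them at the upper limit, all in ketotic cows. Over all spots of the arrays the shares were 16.5% in ketotic and 11.9% in healthy cows, so a gap in this direction is not particular to these genes. SLC27A6 (7 of 28 spots in ketotic, 2 of 28 in healthy cows), FABP1 (5 of 28 and 0 of 28) and SLC27A1 (5 of 28 and 1 of 28) carried part of the gap among the 10 genes. Values of SLC27A6, FABP1 and SLC27A1 in ketotic liver therefore rest on fewer cows, and the part of missing spots in their differences was not tested.

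The relatives of these genes were read from the same fit. Of 16 other acyl-CoA synthetases 7 were measured, of which ACSS2, which activates acetate, fell 3.61-fold (limma adjusted p = 0.0240) and none rose. Among 4 measured acyl-CoA binding proteins related to DBI (ACBD3, ACBD4, ACBD5 and ACBD6) none passed. All 4 differences were negative, as were 67.2% of those of all genes; ACBD4 had the smallest p (-0.61, adjusted p = 0.251). Of 11 other binding proteins 3 were measured: ALB, the albumin that carries fatty acids in plasma, rose 3.06-fold (adjusted p = 0.0228), but its difference was -0.074 with one spread for all arrays. GOT2, a mitochondrial aminotransferase also described as a membrane fatty acid binding protein, fell without healthy cow 7 (-0.60, adjusted p = 0.0334; -0.43 and 0.244 with all cows). FABP2, FABP4, FABP5 and FABP7 had a probe but too few values, and FABP4, the fat-cell form, was measured in 1 ketotic and 3 healthy cows. Of 11 further uptake genes 4 were measured, and LIPC, the hepatic lipase, fell 3.13-fold (adjusted p = 0.0398). No gene passed among 4 measured acyl-CoA thioesterases, which undo the activation, where THEM4 had the smallest p (-0.53, adjusted p = 0.0796; 0.0159 without healthy cow 7).

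Genes of the steps that follow or regulate activation did not pass with all cows. Of 6 measured genes of mitochondrial entry, CPT1C had the smallest p (0.28, limma adjusted p = 0.262), and without healthy cow 7 CPT1A, the gate to mitochondrial oxidation in liver, fell by 0.61 (adjusted p = 0.0481). Of 9 measured regulators, PPARD, a fatty acid receptor of the PPAR family, had the smallest p (0.38, adjusted p = 0.0609; -0.023 on values as deposited). PPARA, the receptor through which fatty acids raise ACSL1, CD36 and FABP1 in rodent liver, stood 0.22 higher in ketotic cows, short of the threshold (adjusted p = 0.813), and at -0.13 without healthy cow 7. SREBF2, a regulator of sterol genes, fell by 0.92 once healthy cow 7 was left out (adjusted p = 0.0278); with all cows the value was -0.81 (0.0633).

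Cell types other than hepatocytes also use several of these genes: CD36 is known from macrophages, endothelium and fat cells, and FABP3 and SLC27A1 from muscle. Of 8 measured macrophage markers CD74, LAPTM5 and AIF1 fell (limma adjusted p = 0.00597, 0.00731 and 0.0394), and 4 fell without healthy cow 7. Over all genes 12.4% fell, and 18.4% without that cow. The rest of the list did not pass with all cows. C1QB was at -0.80, C1QC at -0.23, CD14 at -0.18, MARCO at -0.15 and C1QA at 0.098. The per-cow median over these markers was 1.01 to 3.09 in ketotic and 0.53 to 3.49 in healthy cows; the low end is healthy cow 7, and the other healthy cows began at 2.42. No marker passed among 4 of endothelium (0.36 to 3.82 in ketotic, -0.81 to 3.93 in healthy cows, from 2.77 without healthy cow 7), 4 of muscle (-0.15 to 1.0 in ketotic, -0.47 to 0.87 in healthy cows, from -0.33 without healthy cow 7) or 2 of fat cells (-0.41 to 1.29 in ketotic, -0.59 to 2.55 in healthy cows); the markers with the smallest p were VWF (0.48, adjusted p = 0.0872), MB (0.36, 0.200) and LEP (1.10, 0.261). The lists were mixed in sign: the other 3 endothelial markers were negative (TEK -0.10, PECAM1 -0.14 and KDR -0.063), as were 1 of 4 muscle markers and RETN, the other fat-cell marker (-0.83, adjusted p = 0.273). Among 7 stellate and fibroblast markers none passed, and DCN had the smallest p (-0.91, limma adjusted p = 0.0752). DCN was the 1 of these that fell without healthy cow 7 (adjusted p = 0.0409). Of the 7 differences 5 were negative, while COL1A1 (0.14) and DES (0.025) were positive. Their per-cow median was -3.72 to -2.22 in ketotic and -3.31 to 0.63 in healthy cows, and the 0.63 was healthy cow 7. The 1 measured blood marker, AHSP, had 0.61 (adjusted p = 0.164). Hepatocyte markers APOA1 and ALB rose (limma adjusted p = 0.0208 and 0.0228), with differences of -0.027 and -0.074 under one spread. Of the 12 measured hepatocyte markers 1 was negative, where 67.2% of all genes were. Their median difference was 0.684, and 0.315 without healthy cow 7. The negative one was APOB, at -0.26 with all cows (adjusted p = 0.920), which fell without healthy cow 7 (-1.44, 0.0412). The part of these cells in the differences of CD36, FABP3 and SLC27A1 was not tested.

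Genes whose profile over the 14 cows was most like that of DBI were found by the root mean square difference between profiles, each centred on its own mean, among the 5239 other genes with a value in every cow. The nearest was ADH5, the formaldehyde-oxidising alcohol dehydrogenase, at 0.410, followed by SELENOF, a selenoprotein of the endoplasmic reticulum, at 0.437, SCPEP1 at 0.447, CCNG1 at 0.456 and B2M, the light chain of class I antigens, at 0.460. The median over genes was 0.964. Their log2 differences, ketotic minus healthy, were -1.46, -1.23, -1.52, -1.52 and -0.97 in that order; these follow from the choice of genes nearest to DBI, which itself fell, and are given as a description. Without healthy cow 7 the nearest was LLPH at 0.371, and ADH5 and SELENOF were still among the first 5, at ranks 3 and 5.

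**Figure D5:**
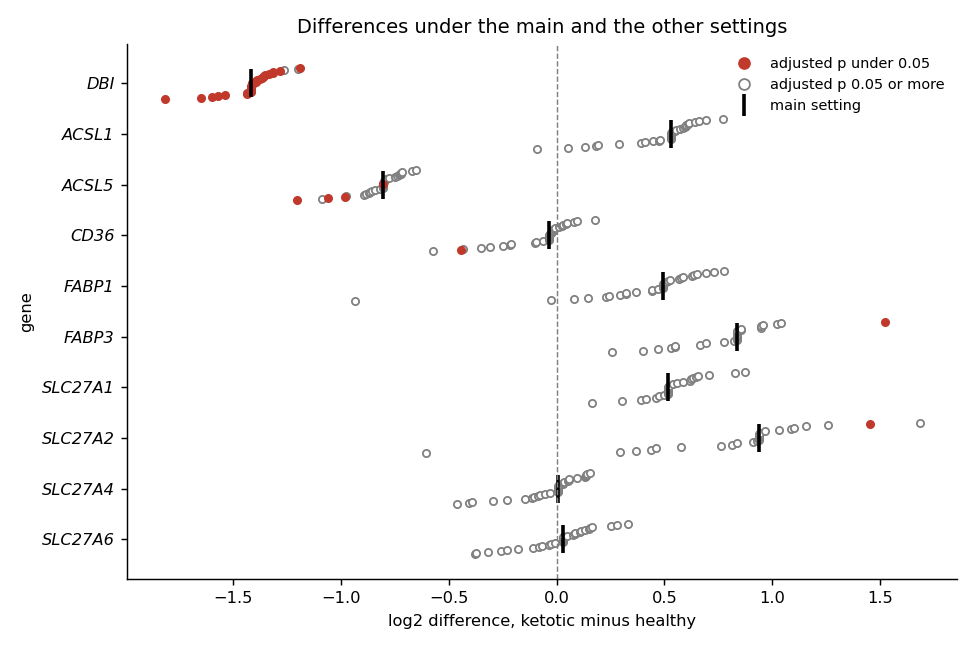
Log2 difference, ketotic minus healthy (horizontal axis), of each gene (vertical axis) in the main setting (black bar) and under the other settings (points); red points have a limma adjusted p under 0.05 and open points do not. DBI stays between -1.82 and -1.19, ACSL5 between -1.20 and -0.65, and SLC27A4 and SLC27A6 lie on both sides of 0.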

How the data were processed

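For every spot on the 28 arrays the authors deposited a log2 ratio between the dyes; their background correction and normalisation are not given in the sources used here. Array medians ran from -1.05 to 2.16. The 6245 values at the ceiling of 16.61 and the 103458 empty cells were read as not measured, and the 5777 zeros were kept. No scanner intensities were used, so dim spots could not be filtered. Arrays with the liver in Cy3 were sign-turned; 1 ketotic array has the same dye in both label fields, and its title was followed. Adjacent duplicate spots were averaged, each array was centred on the median of its probes, and a cow took the mean of its 2 arrays, both needed. Probes measured in fewer than 5 cows of either group were left out, leaving 10420 probes. Probes of a gene were centred and averaged.

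Symbols came from the platform annotation, which can be old, updated by gene ID (8645 probes with 1 symbol, 105 with several, 5074 with none; 8620 matched assembly ARS-UCD2.0). The array's build is not named, so no coordinates are given, and no sequences were used.

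Groups were compared with limma 3.58.1 (R 4.3.3), two-sided, with Benjamini-Hochberg adjustment over 6958 genes. Errors of differences are limma's moderated standard errors. The fit was tested on simulated data. Figures used matplotlib 3.10.9. Named were the 10 genes and, of each other list, up to 4 passing genes or the 1 with the smallest p. CPT1A, PPARA, APOB, GOT2, RETN, TEK, PECAM1, KDR, SREBF2, COL1A1, DES, C1QA, C1QB, C1QC, CD14, MARCO, the ACBD genes and the unmeasured FABP genes were added after their values were seen. Members and lists were chosen with earlier results of these data known. Alternatives covered scaling, ceiling, zeros, dyes, filters, model, weights, a covariate and each cow left out. The labels give no batch. The number of arrays limits the precision.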

Additional observations from a re-analysis of the deposited data

Results flagged for a closer look

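Dixon's test at its 95% level was run on each of the 10 genes within each group. It singled out the lowest or highest cow in 6 of the 20 sets of values; chance alone singles out about 1 in 20 sets, and genes measured on the same cow share its arrays. All 6 were healthy cow 7. Its log2 ratio was -0.64 for DBI (the next healthy cow had 0.36), 0.31 for ACSL1 (3.42), 0.37 for ACSL5 (1.56) and 0.39 for CD36 (2.92). It was 4.17 for FABP1 (6.99) and 0.17 for SLC27A4 (2.31).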

How the results depend on the processing

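DBI was lower in ketotic cows under all 32 alternatives (-1.82 to -1.19) and passed in 30, failing on Cy5-labelled liver and in the fit whose covariate was the share of unusable spots. ACSL5 was lower in all 32 and passed in 4. Each of these 2 genes has 1 probe with a ratio on every spot, so several alternatives could change only the adjusted p. These were the filters on cows and arrays, limma's trend and robust options, cow as a random block, and the probe fitted among all probes. In each of them DBI was at -1.42 and ACSL5 at -0.80, so their sign there adds nothing to the main setting. The count of genes past the threshold, 929, was 2477 on values as deposited, 616 centred on probes measured on every array, 550 with one spread, 562 with quantile normalisation, 12 with the liver in Cy5, 1435 with weights per cow and 168 with the covariate. It was 652 to 1368 with 1 cow left out, the highest without healthy cow 7. Genes that rose were 6.89% of the calls, 0.444% as deposited and 20% when centred on probes measured on every array. Of the 10 genes, 2 fell as deposited, with weights per cow and with array values and cow as a random block (DBI and ACSL5). In those settings 35.4%, 18.5% and 14.8% of all genes fell. With the liver in Cy5 and with the covariate 0 of the 10 fell, where 0.144% and 2.3% of all genes did. With 1 cow left out 1 to 3 fell, where 8.92% to 18.4% of all genes did. In addition FABP3 rose with one spread, where 35 of 6958 genes rose. SLC27A2 rose with the liver in Cy3, where 41 of 7432 genes did. Differences changed sign as deposited for SLC27A4 (-0.39), SLC27A6 (-0.38), CPT1C (-0.12), PPARD (-0.023) and MB (-0.036). With one spread they did so for ACSL1 (-0.090), FABP1 (-0.93), SLC27A2 (-0.61), SLC27A4 (-0.46), SLC27A6 (-0.38), ALB (-0.074) and APOA1 (-0.027). CD36 was at 0.095 centred on probes measured on every array and 0.18 with the liver in Cy5; LEP was at -0.37 with ceiling values kept and -0.19 with the liver in Cy5. SLC27A4 and SLC27A6 were at -0.30 and -0.26 with quantile normalisation, -0.23 and -0.069 with weights, -0.079 and -0.23 with the covariate, and -0.15 and -0.027 with healthy cow 7 from its Cy3 array alone; SLC27A4 was at -0.085 with the liver in Cy3. With 1 cow left out, CD36 ranged over -0.44 to 0.08, FABP1 over -0.026 to 0.78, SLC27A4 over -0.41 to 0.15 and SLC27A6 over -0.32 to 0.33. The cause of these shifts was not tested. Healthy cow 7 from one array, centring on spots, and the within-cow differences, with and without one spread, were chosen after seeing the data. No paired analysis was possible because the replicate numbers only name the cows. Without scanner intensities, signal over background is unknown.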
